A study of Mus musculus with 4 samples.

Results

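Genes of mitosis and chromosome segregation were compared between CD4 cells of sanroque and wild type mice. The group holds 48 genes whose products enter, run or end cell division, and each was taken by the array probe sets annotated to that gene and no other. Of the 48, 45 had such a probe set, out of 12393 genes in the whole table, and 86 probe sets represented them. Ccnb1, Cdca8 and Espl1 had none in the annotation used and are not analysed here. For each gene the brightest probe set, by its mean signal over all arrays, stood for the gene. A mean signal of 21.3, the 40th percentile, was required for a test, which 31 of the 45 genes reached and 14 did not.

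A dividing cell enters mitosis when cyclins A and B activate the kinase Cdk1. Chromosomes are then condensed, spindle microtubules attach to their kinetochores, and a checkpoint holds the cell until all are attached. The anaphase-promoting complex next marks cyclins and securin for destruction, sister chromatids part, and the cell cleaves. Resting T cells carry little of these transcripts, which build up late in the cell cycle after stimulation.

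Total RNA was measured on 4 Affymetrix MOE430A arrays, 2 of san/san and 2 of +/+ animals. Sanroque arose when male C57BL/6 mice were mutagenised with ENU. It is recessive, was found in a screen for antinuclear autoantibodies, and is known as a mutation of Rc3h1, the gene of the RNA-binding protein Roquin-1. Rc3h1 is not analysed here, so no transcript checks the genotype labels. The labels give no age for the animals used. They also do not say whether 2 arrays of one genotype came from different animals, and if they did not, the p-values below reflect technical spread alone. In the file headers both arrays numbered 1 are described as sorted T cells, and the sample name of wild type array 2 has the letters CBA, which no label explains. Without that array the same 7 genes passed as with it. Arrays numbered 1 shared a hybridisation day, and arrays numbered 2 shared another.

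The cells carried transcripts of CD4 T cells, beside transcripts of other cells. Cd4 read 533.3 and 613.5 in wild type and 585.9 and 570.2 in sanroque, and the T cell receptor component Cd3d read 2633 and 3523 against 2524 and 3229. Neither differed beyond the spread of the arrays (log2 change 0.01, adjusted p = 0.991, and -0.09, adjusted p = 0.951, by limma). Over the 13580 probe sets tested, the log2 signals of 2 arrays of a genotype correlated with 0.9663 in wild type and 0.9625 in sanroque. Between genotypes these correlations ran from 0.9357 to 0.9608. Probe sets are not independent replicates. Median signals over all probe sets lay between 30.8 and 40.4. Mean signals over the arrays were 575.7 for Cd4 and 2977 for Cd3d. Of genes of other cells, the erythroid gene Alas2 had 793.6 and the macrophage gene Csf1r 496. The plasma cell gene Jchain had 436.6 and the B cell gene Ms4a1 289.8. Such means do not give the share of each cell type.

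Some of the mitosis genes rose in sanroque CD4 cells, while most did not pass the test. Both sanroque arrays lay above both wild type arrays for 27 of the 45 genes with a probe set, and below for 1, Ect2. Over all 12393 genes with a probe set, 21.9% lay above and 13.4% below in this way. The median log2 change was 0.57 over the 45 genes and 0.06 over all 12393. Of the 31 tested genes, 7 rose by limma, with p-values adjusted by Benjamini and Hochberg's method across 13580 probe sets and a threshold of 0.05. None of the 31 fell and 24 did not pass. The background of this test was 0.776% of 7861 genes called higher and 0.331% called lower, or 0.67% and 0.39% of probe sets, 1.06% together. At an unadjusted p under 0.05, 15 of 31 were higher and 0 lower, against 6.16% and 3.43% of all genes tested. The 7 were Mki67, Top2a, Smc4, Kif22, Nusap1, Ube2c and Pttg1. With the hybridisation day as a block, 13 rose and 0 fell, against 3.92% and 2.14% of all genes and 3.59% and 2.69% of probe sets, 6.28% together. Ccnb2, Cdk1, Cks1b, Cks2, Stmn1 and Racgap1 were the 6 added.

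These calls rest on few arrays. None of the 31 passed without the variance trend, where 16 had an unadjusted p under 0.05, and none of 45 passed without the filter, where 15 did. Without sanroque array 2 only Mki67 passed, and without sanroque array 1 only Mki67, Top2a and Pttg1. Of the 31 tested genes, 4 reached the filter through sanroque alone, since the wild type mean of Ccnb2, Cdk1, Kif11 and Kif4 lay under it. All 4 lay above wild type on both sanroque arrays, as did 53.9% of the 317 genes of that kind. Among the remaining 27 genes, 19 lay above wild type on both sanroque arrays, against 21% of 7544 such genes. Of these 27, 7 rose, 13 were higher at an unadjusted p under 0.05, and 11 rose with the block. Over all 31 the count was 23, against 22.3% of 7861 genes, and 0 lay below, against 16.3%. In RNA from many cells, more dividing cells and more of a transcript per cell cannot be told apart.

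**Figure D1:**
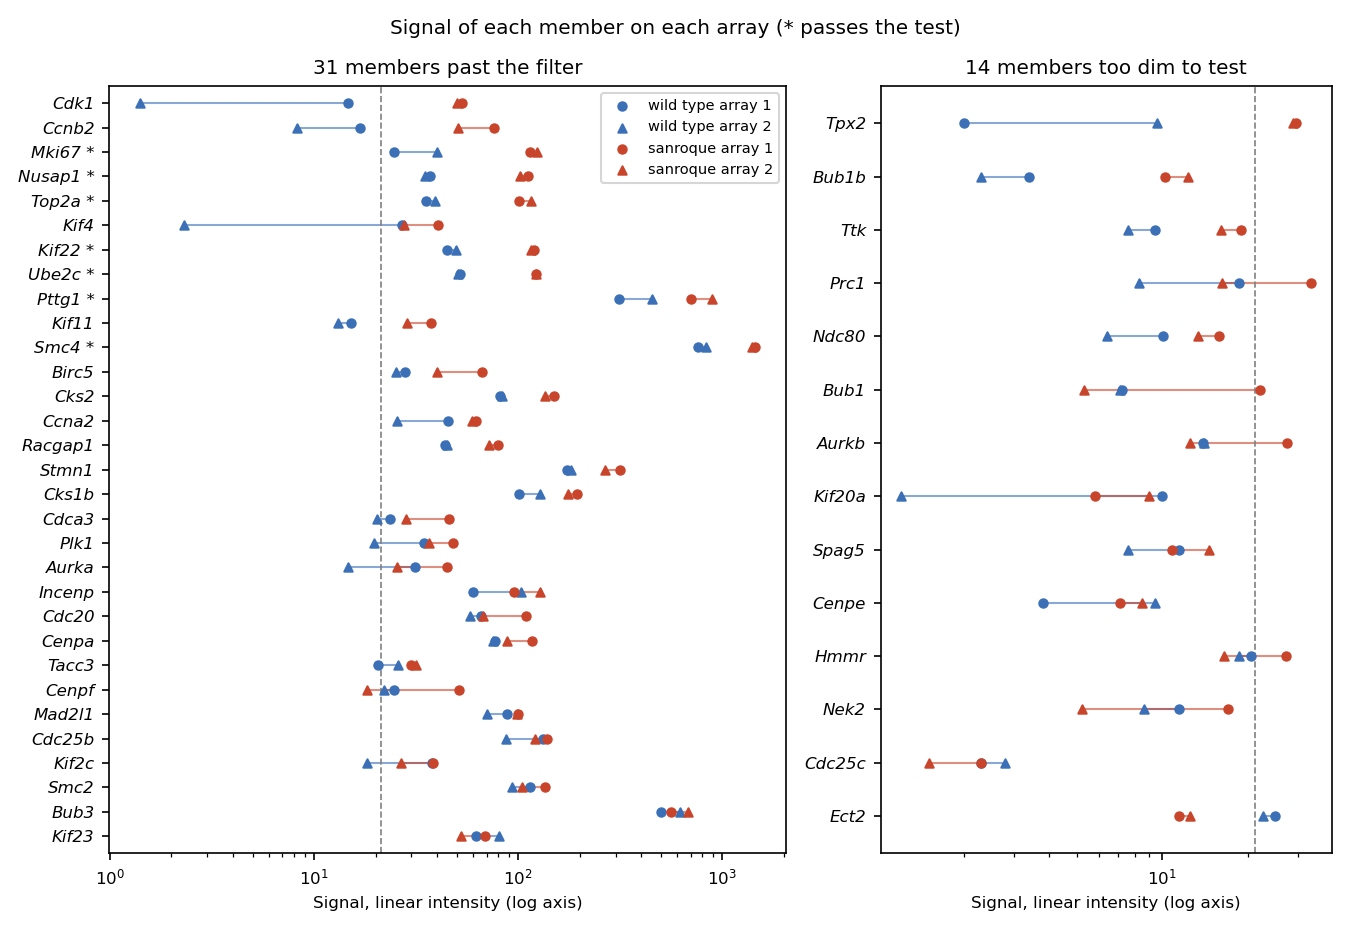
Signal of each of the 45 mitosis genes with a probe set (linear intensity on a log axis), with wild type in blue, sanroque in red, circles for arrays numbered 1 and triangles for arrays numbered 2. Lines join the 2 arrays of a genotype, the dashed line marks the mean signal of 21.3 required for a test, and asterisks mark the 7 genes that passed; in the left panel most sanroque points lie right of the wild type points, while Ect2 in the right panel lies the other way.

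Chromosome structure held 3 of the 7 genes that rose. Mki67 encodes Ki-67, which coats mitotic chromosomes and is the usual marker of cycling cells. Its probe set 1426817_at read 24.6 and 39.8 in wild type and 113.9 and 123.7 in sanroque. The genotypes were well apart, with a log2 change of 1.74 (standard error 0.26, limma adjusted p = 0.0103). Top2a, the topoisomerase that disentangles sister chromatids, read 35.3 and 39.0 against 100.7 and 115.5 by probe set 1454694_a_at. It rose by 1.40 on the log2 scale (standard error 0.23, limma adjusted p = 0.016).

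Smc4 and Smc2 encode the paired core subunits of condensin, the ring complex that compacts chromosomes. The 2 genes did not give the same picture. Smc4 read 757.7 and 830.0 in wild type and 1454 and 1395 in sanroque by probe set 1452197_at, a rise of 0.84 (standard error 0.17, limma adjusted p = 0.0468). A second Smc4 probe set, 1427275_at, went the other way, with 458.9 and 816.8 in wild type and 344.2 and 284.3 in sanroque. Its log2 change of -0.96 did not pass (adjusted p = 0.139, and 0.000488 with the day as a block). The third, 1427276_at, had 0.29 (adjusted p = 0.678). With the 3 averaged, the change of Smc4 was 0.06 (adjusted p = 0.955), so its call depends on the probe set. Smc2 read 113.8 and 92.8 against 134.7 and 104.1, and the genotypes overlapped (log2 change 0.19, adjusted p = 0.874).

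Cdk1 and Ccnb2 had the largest log2 changes of the 31 genes, from dim wild type signals that lay under the filter. Mki67 lay above both with 24 added to each signal, at 1.36, and without wild type array 2, at 2.03. None of the 6 tested genes of cyclins, Cdk1 and their regulators passed, 5 were higher at an unadjusted p under 0.05, and 4 rose with the block. Cdk1, the kinase that drives entry into mitosis, read 14.7 and 1.4 in wild type and 53.1 and 50.3 in sanroque. Its log2 change of 2.22 had a standard error of 0.55 and did not pass (limma adjusted p = 0.109). With the block it passed (0.000305). Without wild type array 2, the lower of the pair, the change was 1.48, and that of Ccnb2 was 1.58. Ccnb2, a B-type cyclin that binds Cdk1, read 16.8 and 8.2 against 76.0 and 50.7. Its change of 1.92 (standard error 0.40) lay just outside the threshold (limma adjusted p = 0.0522) and passed with the block (6.83e-05). With 24 rather than 6 added to each signal the changes of Cdk1 and Ccnb2 were 1.27 and 1.25, and that of Ccnb2 then passed (adjusted p = 0.0448).

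Other partners of Cdk1 differed less. Cyclin A2, encoded by Ccna2, acts in both S phase and mitosis and read 45.1 and 25.6 against 61.8 and 59.3, a log2 change of 0.73 (adjusted p = 0.462). Its second probe set had 1.33 (adjusted p = 0.123, and 0.000704 with the block). Cks1b and Cks2 encode small proteins that bind the kinase. Cks2 read 81.7 and 83.0 in wild type and 150.4 and 135.7 in sanroque (log2 change 0.75, standard error 0.20, adjusted p = 0.133, 0.00659 with the block), and its other probe set had 0.74 (adjusted p = 0.186, 0.0123 with the block). Cks1b had 0.67 (adjusted p = 0.213, 0.0142 with the block) and 0.37 by its other probe set. The phosphatase Cdc25b, an activator of Cdk1, overlapped between genotypes, with 132.3 and 87.0 against 138.1 and 120.7. Cdc25c, its relative, read 1.5 to 2.8 on the 4 arrays and was too dim to test.

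Of the genes that end mitosis, 2 of 4 tested rose. Ube2c, the ubiquitin-conjugating enzyme that works with the anaphase-promoting complex, read 51.7 and 50.7 in wild type and 122.2 and 121.8 in sanroque by probe set 1452954_at. The 2 arrays of each genotype lay close together, and the log2 change was 1.16 (standard error 0.21, limma adjusted p = 0.0255). Pttg1 encodes securin, which holds separase inactive until anaphase. It read 311.4 and 454.2 against 700.6 and 893.3 by probe set 1438390_s_at, a rise of 1.06 (standard error 0.21, limma adjusted p = 0.0471). With median centring of the arrays Pttg1 did not pass (0.0945). Its second tested probe set had 0.67 (adjusted p = 0.201, 0.0133 with the block).

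The other tested genes of this role, Cdc20 and Cdca3, did not pass. Cdc20, which brings the complex to its mitotic substrates, read 65.7 and 57.8 in wild type and 108.8 and 66.9 in sanroque, so sanroque array 2 lay just above wild type (log2 change 0.44, adjusted p = 0.661). Without that sanroque array the change was 0.76, and without sanroque array 1 it was 0.11. Cdca3, which promotes the destruction of the Cdk1 inhibitor Wee1, read 23.6 and 20.4 against 45.6 and 28.2, with 0.59 (adjusted p = 0.7).

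Among microtubule-binding proteins 1 of 3 tested genes rose. Nusap1, which bundles spindle microtubules around chromosomes, read 37.1 and 34.9 in wild type and 112.0 and 101.8 in sanroque by probe set 1416309_at. The rise was 1.43 (standard error 0.23, limma adjusted p = 0.0143). Stmn1 encodes stathmin, which destabilises microtubules and is abundant in proliferating cells. It read 173.2 and 181.8 against 314.3 and 266.2, well apart, with a log2 change of 0.69 (standard error 0.18) that passed with the block alone (adjusted p = 0.141, 0.00537 with the block). Tacc3, a stabiliser of spindle fibres, read 20.5 and 25.7 against 29.8 and 31.6 (0.34, adjusted p = 0.874). Prc1, Hmmr and Spag5 were too dim to test.

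Among mitotic kinesins, the motors that move chromosomes and spindle poles, 1 of 5 tested genes rose. Kif22, a chromosome-bound motor, read 44.8 and 49.5 in wild type and 120.2 and 115.0 in sanroque by probe set 1437716_x_at, a rise of 1.22 (standard error 0.22, limma adjusted p = 0.0239). Kif4, which shapes the chromosome axis and the midzone, read 26.9 and 2.3 against 40.5 and 27.5. Its genotypes lay next to each other, and the log2 change of 1.26 (adjusted p = 0.576) was 0.26 without wild type array 2 and 2.25 without wild type array 1. Kif11, the motor that separates spindle poles, read 15.2 and 13.1 against 37.3 and 28.5, with 0.94 (adjusted p = 0.511). Its 2 dimmer probe sets had 0.93 and 0.78. Kif2c, a microtubule depolymerase, overlapped (0.22, adjusted p = 0.935). Kif23, a motor of cytokinesis, was the only tested gene of the 31 with a negative change, at 61.9 and 80.9 against 68.5 and 52.7 (-0.22, adjusted p = 0.876). Kif20a, another cytokinesis motor, was too dim to test and overlapped, with 5.8 and 9.0 in sanroque.

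Spindle checkpoint genes were partly too dim. Bub3, which carries checkpoint kinases to kinetochores, read 500.8 and 618.3 in wild type and 558.0 and 677.6 in sanroque. Its arrays ran by day rather than by genotype, with higher values on day 2 (log2 change 0.14, adjusted p = 0.895). Mad2l1, the inhibitor of Cdc20, read 88.4 and 70.6 against 99.8 and 98.3 (0.31, adjusted p = 0.732). The checkpoint kinase gene Bub1b was too dim to test, at 3.4 and 2.3 against 10.2 and 12.3, and so was Ttk, at 9.4 and 7.6 against 19.0 and 16.1. Both lay higher on both sanroque arrays, and 21.3% of all 4532 genes below the filter did so. Bub1, the third checkpoint kinase, read 7.2 and 7.1 against 22.1 and 5.3, and its dimmer probe set 0.6 and 3.6 against 18.0 and 5.5.

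Neither tested gene among the kinases of the centrosome and spindle passed, and 0 were higher or lower at an unadjusted p under 0.05. Plk1, which acts from spindle assembly to cytokinesis, read 34.4 and 19.7 in wild type and 47.9 and 36.7 in sanroque, close together (log2 change 0.57, adjusted p = 0.683). Aurka, the kinase of spindle poles, overlapped, at 31.2 and 14.7 against 44.8 and 25.4 (0.53, adjusted p = 0.788). Tpx2, its activator on the spindle, was too dim to test but lay far apart, at 2.0 and 9.6 against 29.6 and 28.9, and its second probe set read 2.0 and 0.6 against 20.6 and 14.0. Nek2, a centrosome kinase, read 5.2 to 17.0 and overlapped.

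In the chromosomal passenger complex, which corrects faulty attachments, neither tested gene passed and 1 was higher at an unadjusted p under 0.05. Birc5, or survivin, read 28.0 and 25.2 against 66.2 and 40.1, a log2 change of 0.83 (adjusted p = 0.433). Incenp, the scaffold of the complex, overlapped, at 60.3 and 103.1 against 95.8 and 127.5 (0.46, adjusted p = 0.652). Its kinase Aurkb was too dim to test, at 13.9 and 14.0 against 27.5 and 12.5, so sanroque array 1 alone was above wild type. A dimmer Aurkb probe set read 4.9 and 6.6 against 11.7 and 9.3, with both sanroque arrays above.

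Kinetochore and cytokinesis genes showed small differences or dim signals. Cenpa, the histone variant that marks centromeres, read 77.2 and 75.5 in wild type and 116.7 and 87.9 in sanroque (0.38, adjusted p = 0.645). Cenpf read 24.7 and 22.1 against 51.1 and 18.1, with sanroque array 1 high and sanroque array 2 low (0.34, adjusted p = 0.902). A dimmer Cenpf probe set, below the filter, read 9.3 and 11.4 against 22.2 and 21.9. Ndc80, which grips microtubule ends, was too dim to test, at 10.1 and 6.4 against 15.8 and 13.4, and the motor Cenpe read 3.8 to 9.4. Racgap1, which organises the central spindle, read 43.8 and 44.6 against 79.3 and 71.6, and its change of 0.70 passed with the block alone (adjusted p = 0.322, 0.0484 with the block). Ect2, the exchange factor that starts the cleavage furrow, was the one gene lower on both sanroque arrays, at 25.0 and 22.7 against 11.5 and 12.5, and was too dim to test.

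**Figure D2:**
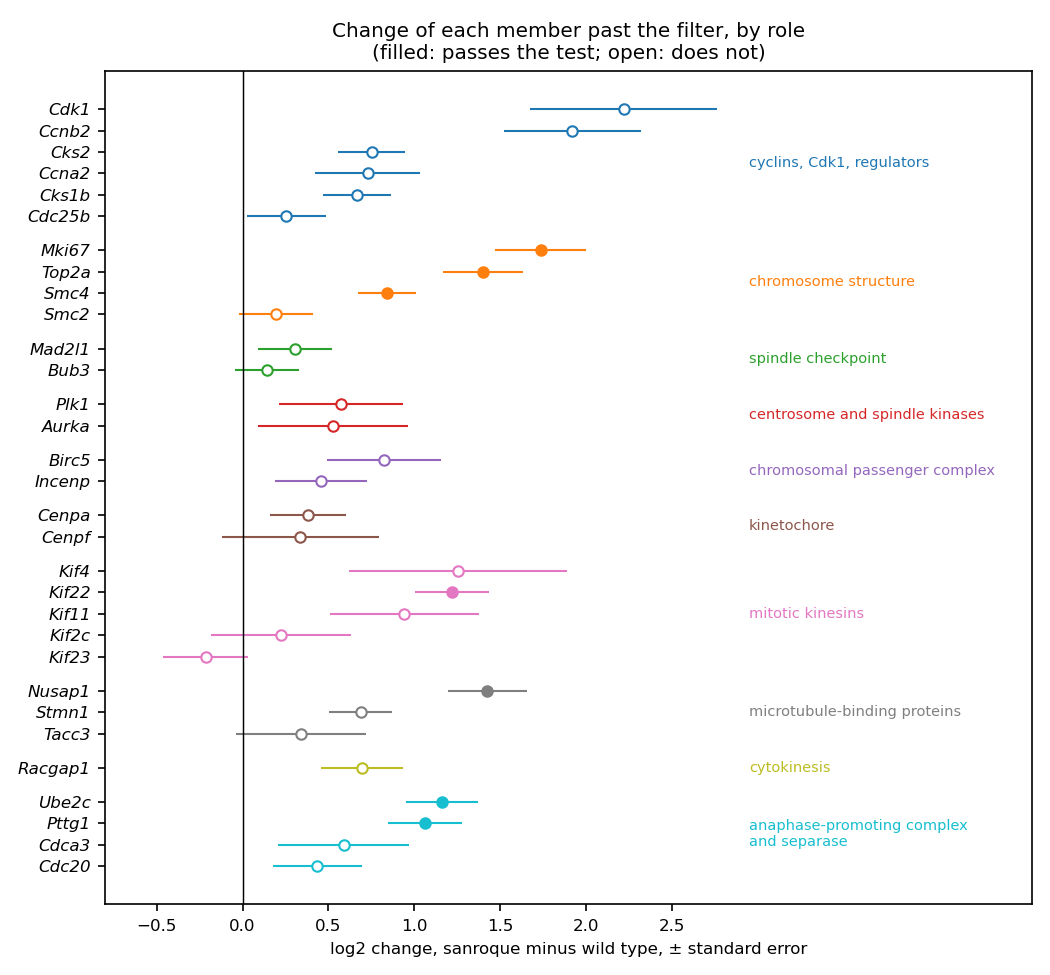
log2 change (sanroque minus wild type) of the 31 tested mitosis genes with its standard error from limma, grouped by role; filled points passed at an adjusted p of 0.05. Cdk1 and Ccnb2 have the largest changes at 6 added to each signal, with wide errors, the 7 filled genes lie between 0.84 and 1.74, and Kif23 is the one gene below 0.

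Genes closest to the signal required for a test were Kif11 and Kif4 inside it, with means of 23.5 and 24.3, and Hmmr and Prc1 outside it, with 20.8 and 19.2. Among the 14 dim genes, 4 lay above wild type on both sanroque arrays, namely Bub1b, Ttk, Tpx2 and Ndc80. Of all 4532 genes below the filter, 21.3% did so. Ect2 lay below, as did 8.23% of genes under the filter.

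The arrays allowed each difference to be read within a day. Of the 31 tested genes, 29 had a change above 0 on both days, against 34.8% of all 7861 genes tested. The exceptions were Kif23 and Cenpf, each positive on day 1 and negative on day 2. The median change of the 31 was 0.80 on day 1 and 0.60 on day 2. These figures include the 4 genes that reached the filter through sanroque alone. Of the other 27 genes, 25 had a change above 0 on both days, with medians of 0.776 and 0.535. Mki67 differed by 1.97 on day 1 and 1.502 on day 2, Nusap1 by 1.45 and 1.40, and Ube2c by 1.15 and 1.17. Cdk1 was less even, with 1.51 and 2.93, as was Kif4, with 0.50 and 2.01. In both of these genes wild type array 2 was the lowest array, at 1.4 and 2.3.

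**Figure D3:**
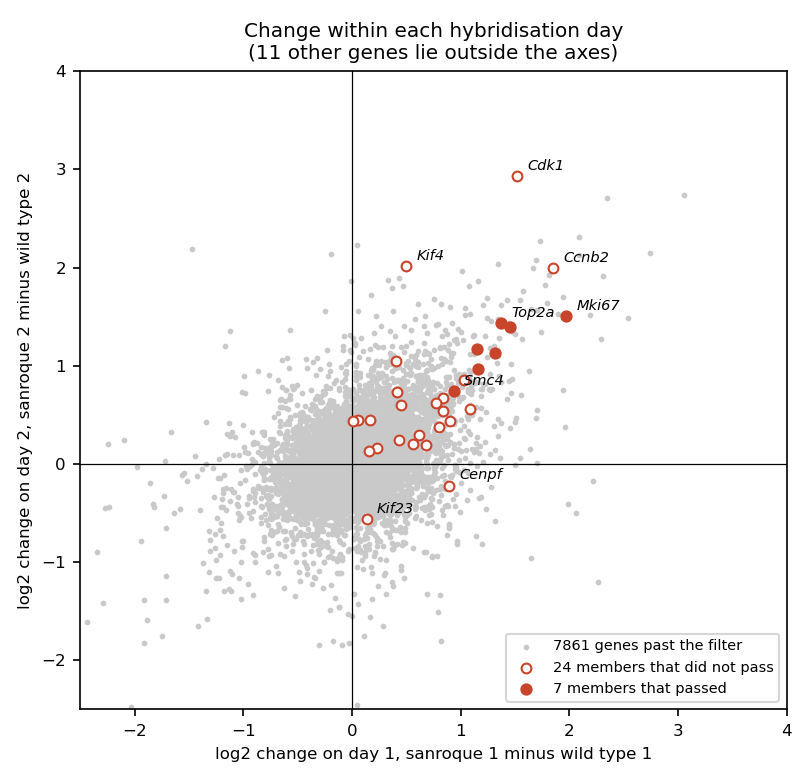
log2 change on day 1 (sanroque 1 minus wild type 1) against day 2 (sanroque 2 minus wild type 2) for all 7861 genes tested (grey), the 7 mitosis genes that passed (filled red) and the 24 that did not (open red). 29 of the 31 red points lie right of and above both zero lines, with Cenpf and Kif23 below the horizontal line.

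Tested probe sets of one gene mostly had the same sign. Of 12 genes with 2 or more tested probe sets, 2 had changes of both signs, Smc4 and Bub3. Over all 2944 genes with 2 or more, the share was 48.9%. The brightest probe sets of Kif22 and Pttg1 carry the name endings x_at and s_at, which on these arrays mark probes that can also bind other transcripts. The dimmer Kif22 probe sets, both below the filter, had 1.05 and 0.40. Probe sets below the filter had 0.11 for Top2a, 0.37 for Nusap1 and -0.15 for Pttg1, each with overlapping genotypes.

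**Figure D4:**
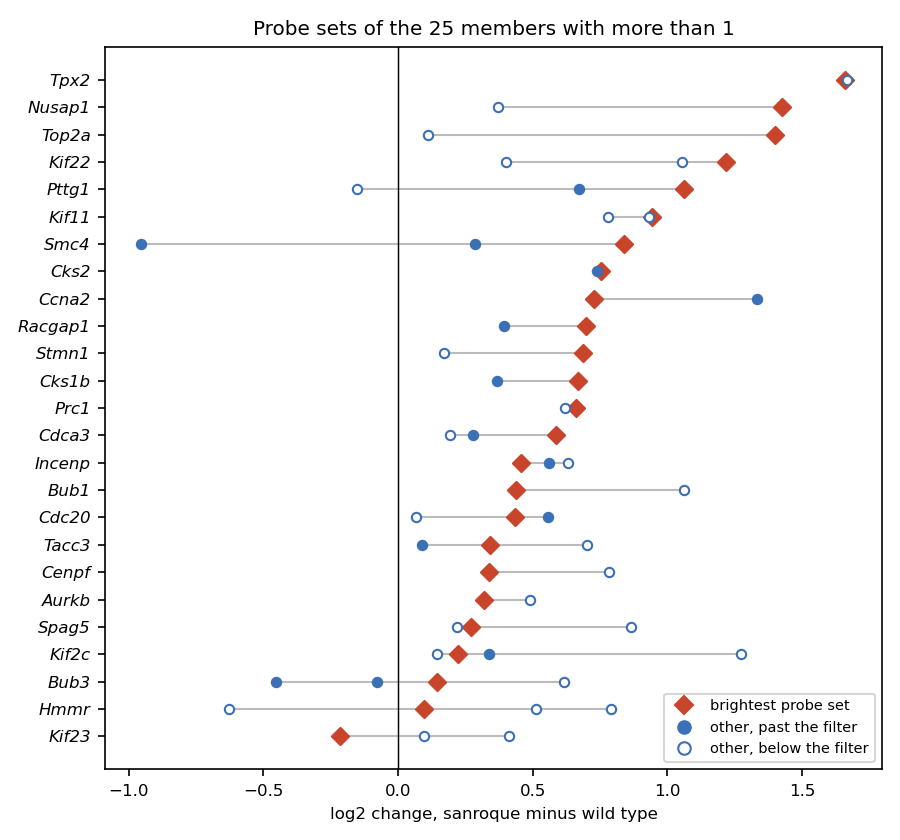
log2 change (sanroque minus wild type) of every probe set of the 25 mitosis genes with more than 1; red diamonds are the brightest probe set, filled blue points other probe sets past the filter and open points those below it. Most points lie right of 0, and the Smc4 probe sets span from -0.96 to 0.84.

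Promoters of these genes shared sequence motifs. Many late cell cycle genes are known to be held silent in resting cells through a promoter element named the cell cycle genes homology region, or CHR, next to CCAAT boxes bound by the factor NF-Y. RefSeq promoter windows, from 250 bases before to 50 after a gene's start in build GRCm38.p6, were available for 40 of the 48 genes, in 43 windows. They were searched on both strands for CCAAT and for TTTGAA and TTTAAA, which are 2 forms of the CHR. TTTGAA was found in 74.4% of the 43 windows, against 11.9% of 8272 windows of genes tested on the arrays and 17.9% of all 32851 windows. CCAAT was found in 83.7%, against 37.1% and 37.4%, and 58.1% held 2 or more of it, against 14.3% and 11.7%. TTTAAA was found in 20.9%, against 8.69% and 13.2%. Both CCAAT and a CHR form were present in 74.4%, against 7.145% and 10.7%. Some windows of one gene overlap, and a match is a run of letters and not a shown binding site.

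The windows of 4 genes that rose and of Cdk1 and Ccnb2 are shown because each holds both motifs. They are written 5′ to 3′ on the strand of the gene, with every CCAAT and TTTGAA, in either orientation (ATTGG and TTCAAA), in capitals. In the window of Ube2c a CCAAT and an ATTGG overlap.
Mki67, chr7:135716330-135716629, minus strand: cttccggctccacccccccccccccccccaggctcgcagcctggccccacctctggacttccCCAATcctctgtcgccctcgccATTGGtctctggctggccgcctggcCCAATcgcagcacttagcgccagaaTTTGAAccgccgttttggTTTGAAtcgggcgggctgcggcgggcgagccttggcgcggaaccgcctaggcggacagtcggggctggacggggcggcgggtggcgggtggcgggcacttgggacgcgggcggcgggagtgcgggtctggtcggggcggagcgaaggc
Top2a, chr11:99024140-99024439, minus strand: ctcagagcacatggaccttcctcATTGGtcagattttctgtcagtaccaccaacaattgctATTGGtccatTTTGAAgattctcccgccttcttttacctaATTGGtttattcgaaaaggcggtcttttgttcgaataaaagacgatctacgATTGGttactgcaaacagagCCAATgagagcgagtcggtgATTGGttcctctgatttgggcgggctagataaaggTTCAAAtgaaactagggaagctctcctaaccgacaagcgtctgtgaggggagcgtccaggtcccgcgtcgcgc
Kif22, chr7:127042371-127042670, minus strand: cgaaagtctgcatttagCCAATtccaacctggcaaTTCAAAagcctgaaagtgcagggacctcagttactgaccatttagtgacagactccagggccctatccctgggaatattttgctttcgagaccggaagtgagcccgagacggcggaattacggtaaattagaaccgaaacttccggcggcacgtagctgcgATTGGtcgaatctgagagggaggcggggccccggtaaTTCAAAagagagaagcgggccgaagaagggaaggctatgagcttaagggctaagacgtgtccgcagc
Ube2c, chr2:164769679-164769978, plus strand: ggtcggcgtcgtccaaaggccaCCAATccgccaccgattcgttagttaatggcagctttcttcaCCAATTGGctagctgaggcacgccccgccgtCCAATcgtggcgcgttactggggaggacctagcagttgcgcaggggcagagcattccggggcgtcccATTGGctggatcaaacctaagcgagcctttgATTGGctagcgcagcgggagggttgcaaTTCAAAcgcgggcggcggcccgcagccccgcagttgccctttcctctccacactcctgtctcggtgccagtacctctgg
Ccnb2, chr9:70421505-70421804, minus strand: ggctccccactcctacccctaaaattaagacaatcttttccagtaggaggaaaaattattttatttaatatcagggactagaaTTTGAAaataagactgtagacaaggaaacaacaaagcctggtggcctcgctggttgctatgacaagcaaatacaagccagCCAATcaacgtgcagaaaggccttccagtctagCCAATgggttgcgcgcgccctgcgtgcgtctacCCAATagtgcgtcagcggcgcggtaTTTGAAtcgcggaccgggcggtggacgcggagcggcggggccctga
Cdk1, chr10:69352863-69353162, minus strand: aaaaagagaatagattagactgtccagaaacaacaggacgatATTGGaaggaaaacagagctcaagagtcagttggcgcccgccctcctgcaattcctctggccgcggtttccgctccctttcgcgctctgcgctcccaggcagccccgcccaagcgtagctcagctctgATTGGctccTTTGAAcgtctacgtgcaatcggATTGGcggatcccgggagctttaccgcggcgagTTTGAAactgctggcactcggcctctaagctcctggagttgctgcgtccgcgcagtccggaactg
Ube2c and Top2a each held 6 CCAAT matches, and the TTCAAA nearest the start began 29 and 23 bases before it. In Mki67 the TTTGAA matches began 116 and 98 bases before the start, in Cdk1 71 and 15 before it. The windows of Nusap1 and Pttg1, which also rose, held none of these motifs, and no window was available for Smc4. Of the 6 windows of genes that rose, 66.7% held CCAAT and a CHR form. Among the 28 windows of tested mitosis genes the share was 71.4%, so the motifs did not set apart the genes that rose.

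**Figure D5:**
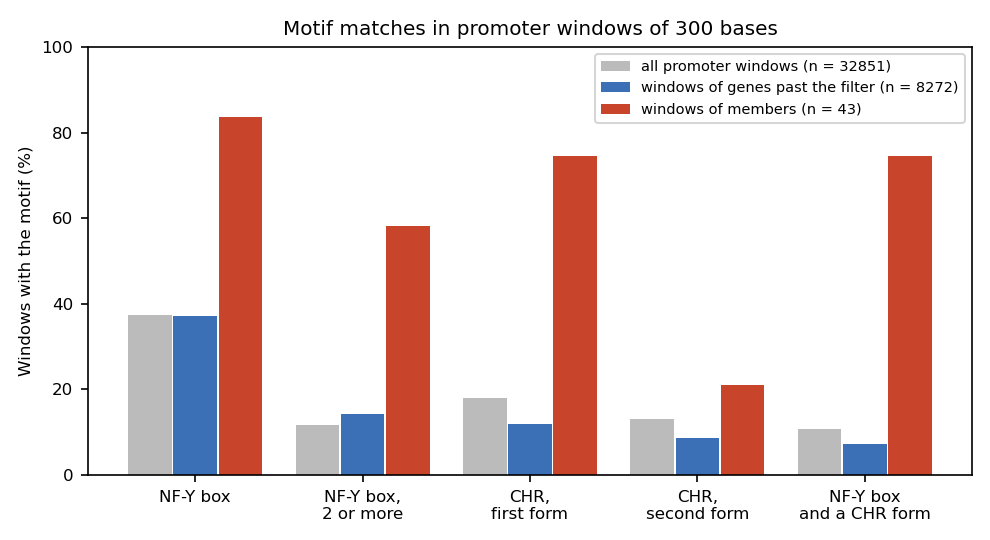
Share of promoter windows (percent) with each motif on either strand, for all windows, windows of genes tested on the arrays, and windows of the mitosis genes; the CHR forms are TTTGAA (first) and TTTAAA (second), and the NF-Y box is CCAAT. The red bars of the mitosis genes reach 83.7% for the NF-Y box and 74.4% for the first CHR form, above the grey and blue bars in every pair shown.

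A wider list of mitosis genes held 126 others, of kinetochores, cohesin and condensin, the anaphase-promoting complex, spindles and mitotic control, of which 88 had a probe set and 60 were tested. None passed by limma. At an unadjusted p under 0.05, 3 were higher and 1 lower, against 6.16% and 3.43% of all genes tested. Of the 60 log2 changes 30 were above 0 and 30 below, with a median of 0.003. The other 28 genes were too dim to test. Of these, 10 lay above wild type on both sanroque arrays and 1 below, against 21.3% and 8.23% of genes under the filter. The median over all 88 was 0.05. With the day as a block 3 of the 60 tested genes rose, Nek7, Ncapd2 and Ckap5, and 1 fell, Ncaph2. Those counts lay near the background of the block fit, 3.92% higher and 2.14% lower of all genes tested. Without wild type array 1, Nek7 and Ckap5 passed.

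Condensin genes of that list had changes of both signs, and none passed without the block. Ncapd2, a subunit of condensin I, had a mean of 20.6 in wild type (SD 0.78, n = 2) and read 53.5 and 40.1 in sanroque (log2 change 0.98, adjusted p = 0.345, 0.0412 with the block). That wild type mean lay under the filter. Ncaph2, a subunit of condensin II, went the other way, at 242.5 and 245.4 against 141.9 and 151.4 (-0.71, adjusted p = 0.114, 0.00425 with the block). With all its probe sets averaged, Ncaph2 had -0.305. Nek7, a kinase of the spindle, read 441.5 and 396.0 against 720.4 and 682.9 (0.74, adjusted p = 0.0807, 0.000892 with the block).

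The subunits of the anaphase-promoting complex and its partners on this list, 14 tested, lay within -0.17 and 0.19 on the log2 scale. Among tested genes of the wider list whose genotypes did not overlap, the 3 largest positive changes were those of Ncapd2, Ckap2, a spindle protein, at 0.94 (adjusted p = 0.647), and Nek7. The 3 largest negative ones were those of Ncaph2, the kinesin Kifc1, at -0.62 (adjusted p = 0.751), and Arpp19, an inhibitor of a mitotic phosphatase, at -0.36 (adjusted p = 0.603). Ckap2, whose wild type mean of 14.35 lay under the filter, had 0.27 without wild type array 2.

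Markers of other cells moved in the same comparison. The signals of the 45 mitosis genes summed to 3231 and 3444 in wild type and 5614 and 5446 in sanroque. Bright probe sets weigh most in such sums. Those of Smc4 and Pttg1, whose limits are given above, were the brightest of the 45, with means of 1109 and 589.9 over the arrays. Of 12 genes of neutrophil precursors, 10 had a probe set, 6 were tested and 1 rose, Ngp, a granule protein gene, from 39.3 and 36.1 to 186.7 and 203.6 (log2 change 2.20, limma adjusted p = 0.000328). With the block the granule protein genes Camp, Ltf and Lcn2 also rose. Camp and Lcn2 reached the filter through sanroque alone, with wild type means of 10.85 and 8.45. The sum over the 10 genes was 128.1 to 153.1 in wild type and 444 to 470 in sanroque. The granule protease genes Elane, Prtn3 and Ctsg, which mark the earliest of these precursors, read 1.3 to 6.5 on all arrays. Mpo and Ms4a3, also of this list, were bright enough to test, did not pass, and overlapped between genotypes. Mpo read 29.0 and 15.6 against 35.7 and 26.4 (0.42, limma adjusted p = 0.852). Ms4a3 read 32.7 and 19.1 against 58.2 and 22.6 (0.46, limma adjusted p = 0.843). Of 8 genes of mature neutrophils, 7 had a probe set, 5 were tested and 2 rose, the calprotectin genes S100a8 (1.28, adjusted p = 0.00714) and S100a9 (1.18, adjusted p = 0.00956). The other 3 tested genes did not pass. The receptor gene Csf3r had 0.06, and the protease gene Mmp9 had 0.84 from a wild type mean of 14.4, which lay under the filter. The cytokine gene Il1b read 105.1 and 117.5 against 88.1 and 62.9 (-0.54, limma adjusted p = 0.459). It was the one gene of the list lower at an unadjusted p under 0.05. The sum over the 7 genes was 599.8 to 601.9 against 1139 to 1158. Its rise lay in S100a8, at 226.7 and 183.3 against 473.7 and 536.4, and S100a9, at 185.1 and 218.7 against 475.1 and 452.4.

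None of 7 tested erythroid precursor genes, out of 12, passed, 3 were higher and 0 lower at an unadjusted p under 0.05, and the sum over 9 genes was 1327 to 1370 in wild type and 1770 to 1963 in sanroque. Alas2, of haem synthesis, had 0.63 (adjusted p = 0.152, 0.00381 with the block) and the membrane protein gene Slc4a1 0.72 (adjusted p = 0.142, 0.00478 with the block). Car2, a carbonic anhydrase gene, had 0.57 (adjusted p = 0.246, 0.0185 with the block). The rise of the sum lay in Alas2, Slc4a1 and Car2. Of the 7 tested changes 4 were positive and 3 negative. The negative ones were those of the receptor genes Tfrc, at -0.24, and Epor, at -0.18, and of Klf1. Klf1, the erythroid transcription factor, read 26.6 and 26.3 against 18.1 and 15.7. For macrophages or dendritic cells none of 9 tested passed, 1 was higher at an unadjusted p under 0.05, and the sum over 10 genes was 987.4 to 1003 against 1204 to 1311, with Csf1r at 0.50 (adjusted p = 0.369, 0.0387 with the block). The part of these cells in the rise of the 7 mitosis genes was not tested.

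Markers of other lymphocytes summed to overlapping ranges. For B cells none of 8 tested genes passed, 1 was lower at an unadjusted p under 0.05, and the sum over 10 genes was 1464 to 1511 in wild type and 1395 to 1502 in sanroque, with Ms4a1 at -0.16 (adjusted p = 0.889) and Cd22 at 0.38 (adjusted p = 0.516). The complement receptor gene Cr2 had -0.73 (adjusted p = 0.215, 0.0126 with the block). For germinal centre B cells, which divide fast, 3 of 7 genes had a probe set and only Ung, a DNA repair enzyme, was tested (-0.39, adjusted p = 0.701), with 0 genes at an unadjusted p under 0.05. Both others were too dim to test and lay higher on both sanroque arrays, Mybl1 at 0.7 and 0.8 against 3.8 and 1.9 and Gcsam at 15.1 and 8.4 against 16.9 and 21.6. So did 21.3% of all 4532 genes below the filter. For plasma cells none of 4 tested passed, and the sum over 6 genes was 986.9 to 1087 against 960.4 to 1103. Xbp1 had 0.26 (limma adjusted p = 0.731) and Prdm1 0.52 (limma adjusted p = 0.569). The other 2 were negative, Jchain at -0.39 (limma adjusted p = 0.49) and Derl3 at -0.14 (limma adjusted p = 0.968). Jchain, at 471.2 and 521.2 against 399.5 and 354.5, was the 1 gene lower at an unadjusted p under 0.05. For CD8 T or NK cells none of 9 tested passed, 2 were higher at an unadjusted p under 0.05, and the sum was 627 to 666.2 against 661.1 to 752.2. Gzma had -0.08 (adjusted p = 0.962), Nkg7 0.79 (adjusted p = 0.119, 0.00516 with the block) and Klrg1 0.66 (adjusted p = 0.319, 0.0436 with the block). The 10 measured CD4 T cell genes summed to 10392 and 11303 in wild type and 9688 and 10861 in sanroque. None of the 10 passed, and 1 was lower at an unadjusted p under 0.05, Cd5, a surface receptor gene, at 925.3 and 973.8 against 693.7 and 759.8 (-0.38, adjusted p = 0.488). Of the 10 changes 7 were negative and 3 positive, and Thy1 had the largest positive one, 0.27 (adjusted p = 0.686).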

How the data were processed

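RNA of CD4 cells was measured on 4 MOE430A arrays (chip type per the file headers). The authors deposited linear intensity values, 1 for each of 22690 probe sets on every array. Their trimmed means (2% to 98%) lay between 99.59 and 99.97, which shows a common scaling. How probes were summarised and background removed is not given in the sources used here, and detection calls were not used here.

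The analysis used log2(signal + 6), 6 being the rounded 20th percentile. Changes on this scale understate those of dim genes. Controls (64 probe sets) and means under 21.3 (40th percentile) were dropped, leaving 13580. Symbols were read from the platform annotation, and 20380 probe sets apart from controls had 1 symbol. The genotypes were compared in limma 3.58.1 (lmFit and eBayes with a variance trend, R 4.3.3), two-sided, with no covariate and Benjamini-Hochberg adjustment over all probe sets. Values are given per array because a genotype has 2 arrays, and that number limits the precision. The fit was tested on simulated data.

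Replicate numbers pair the arrays by hybridisation day, per the file headers. Deviations from the genotype mean correlated with 0.392 between same-numbered arrays. The block fit used this number.

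The genes, their roles and the other lists were chosen with earlier results of these data known. The rule for naming gave array values for every gene that passed, for Mki67, Top2a, Ccnb1, Cdk1, Aurkb, Plk1, Cdc20 and Stmn1, and for the 2 largest changes of each role. Of the wider list it named those that passed and the 3 largest separated changes in each direction, and of each marker list the brightest, the largest rise and those that passed. Values of the remaining genes, and Ckap5, Cd4, Camp, Ltf, Lcn2, Elane, Prtn3, Ctsg, Mpo, Ms4a3, Jchain, Derl3, Klf1, Tfrc, Epor, Car2, Cr2, Klrg1, Cd5, Il1b, Csf3r, Mmp9, Gcsam and Mybl1, were added after they were seen. Alternatives tried were median centring, quantile normalization, adding 1 or 24 in place of 6, no filter, a filter at the 60th percentile, no trend and the block. Averaging the tested probe sets of each gene, without those below the filter, and leaving out each array were also tried. Plots used matplotlib 3.10.9 (Python 3.11.15).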

Additional observations from a re-analysis of the deposited data

How the results depend on the processing

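The count of mitosis genes that rose, 7 of 31, was 6 to 8 under quantile normalization, median centring and 1 or 24 added to each signal. The same held for the filter at the 60th percentile and for averaging the tested probe sets of each gene. Probe sets below the filter did not enter that average. The count was 0 without the filter and 0 without the variance trend, 13 with the replicate block, and 1 to 9 with 1 array left out. None fell under any of the 13 alternatives. Probe sets called over the whole table numbered 144, against 56 without the filter, 47 without the trend, 853 with the block and 109 to 358 with 1 array left out. Of the wider mitosis list 0 rose and 0 fell, against 3 and 1 with the block, and 0 to 2 rose with 1 array left out. The median change of the tested mitosis genes, 0.69, was 0.54 with 24 added to each signal and 0.60 to 0.82 with 1 array left out. Mki67 passed under 11 of 13 alternatives and Smc4 under 7.

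Signs turned for a few genes that had not passed. Bub3 had -0.129 by averaging its 3 tested probe sets and -0.008 to 0.293 with 1 array left out. A further Bub3 probe set, below the filter and not averaged, had 0.617. With 1 array left out Cdc25b ranged from -0.034 to 0.539, Kif2c from -0.206 to 0.650, Cenpf from -0.285 to 0.959, Cd3d from -0.303 to 0.117, Ms4a1 from -0.389 to 0.069 and Gzma from -0.406 to 0.238. Cd3d had 0.033 under quantile normalization. Where a genotype keeps 1 array, that array is assumed to vary like the others. The dim signals of 14 genes limit what could be tested. The replicate block changed no call of a listed gene other than those given beside the results.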
